A study of Mus musculus with 4 samples.

Results

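The genes described here carry out DNA replication and entry into S phase: they license origins, unwind and copy DNA, supply nucleotides and switch cells out of G1. Of 44 genes listed by name, 42 had a probe and were taken from the 17742 genes named on the array, by symbol with case ignored and older names accepted. Pcna and Tyms were not analysed here. The cells were 3T3-L1, an established clonal mouse preadipocyte line that stops dividing at confluence and turns into fat-storing cells when given an induction mixture. Berberine cells (2 arrays) received the mixture of 1 µg/ml insulin, 0.5 mM isobutylmethylxanthine and 1 µM dexamethasone together with 13.47 µM berberine, a plant alkaloid, for 48 hours. Control cells (2 arrays) received the same mixture for 48 hours without berberine. No uninduced cells and no other time were analysed here, and nothing in the labels says that the arrays of a group came from separate cultures, so each p-value reflects array-to-array spread alone, possibly only technical.

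Replication is prepared in G1, when the origin recognition complex, CDC6 and CDT1 load the MCM2-7 helicase on DNA. At the start of S phase CDC45 and the GINS complex join MCM2-7 to form the active helicase, primase and the polymerases follow, and E2F factors switch on many of the genes involved. In 3T3-L1 cells the induction mixture sends arrested preadipocytes back into the cell cycle for a short period called mitotic clonal expansion, before they leave the cycle and differentiate.

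With quantile normalization most replication genes were called higher with berberine, while the genes of the single-strand DNA binding complex were called lower. Neither held under every scaling: in the deposited values 40.5% of the members were called higher, and the Rpa1 call was lost. After quantile normalization and by 1 probe per gene, 25 of 42 members rose (59.5%), against 30.0% of all 17734 genes tested. At the same threshold 5 fell (11.9%), against 18.2% of all genes. The other 12 did not pass the threshold, an adjusted p of 0.05 from a limma fit with Benjamini-Hochberg adjustment over all probes. Of the 42 members, 20 rose at least 2-fold (47.6%), against 12.9% of all genes, and 3 fell at least 2-fold (7.14%), against 11.5%. In the deposited values the rises of Pola1, Pold1, Prim1, Cdc6, Orc1, Orc2, Dut and Gmnn stayed under 2-fold (log2 change 0.59 to 0.96). There Gins4 reached a 2-fold rise (1.03), and Mcm7 and Tk1 a 2-fold fall (-1.11 and -1.04). The share of all genes at 2-fold was not counted in those values. After quantile normalization both berberine arrays lay above both control arrays at 27 members (background 49.2%) and below both at 8 (28.3%). Whole-number intensities of members are as deposited, while folds and log2 changes are on quantile-normalized intensities unless another scaling is named. Log2 changes are berberine minus control. Their median was 0.91 over the members and 0.20 over all genes, and 34.4% of the 13763 genes within the members' range of control level rose. In bulk RNA, a different share of cells in S phase and a different amount of these RNAs per cell cannot be told apart.

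The sizes of the changes and the counts of calls depended on how the arrays were scaled. For all genes the median change was 0.20 with quantile normalization, -0.02 with the values as deposited, 0.55 with each array centred on its median, 0.29 with a common 75th percentile and 0.01 with cyclic loess. Relative to that median, the members' median was 0.71 with quantile normalization, 0.72 as deposited and with both rescalings, and 0.55 with cyclic loess. In the deposited values 17 members rose (40.5%, against 11.2% of all genes) and 5 fell (11.9%, against 16.7%). After centring 28 rose (66.7%, against 44.3%) and 3 fell (7.14%, against 12.8%). With a common 75th percentile 25 rose (59.5%, against 25.1%) and 5 fell (11.9%, against 14.4%), and after cyclic loess 19 rose (45.2%, against 18.7%) and 8 fell (19.0%, against 24.1%). Higher genes made up 83.3% of the member calls after quantile normalization and 70.4% after cyclic loess, against 62.3% and 43.8% of the calls over all genes. That share of the member calls was 77.3% in the deposited values and 90.3% after centring, against 40.2% and 77.5% of the calls over all genes.

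Without berberine replicate 1, 11 members were higher (26.2%, against 6.53% of all genes) and 3 lower (7.14%, against 8.62%). Without berberine replicate 2 the counts were again 11 and 3, against 5.51% and 8.07% of all genes. The share of members that were lower was thus near the background in both cases. The members that kept a rise in both cases were Mcm4, Mcm10, Pold1, Pole, Pole2, Cdc6, Cdt1, Orc1, Orc2, Lig1 and Dut, and those that kept a fall were Rfc3, Rpa2 and Rpa3. Of these, all but Orc2 and Dut also kept their calls under the other alternatives run.

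**Figure D1:**
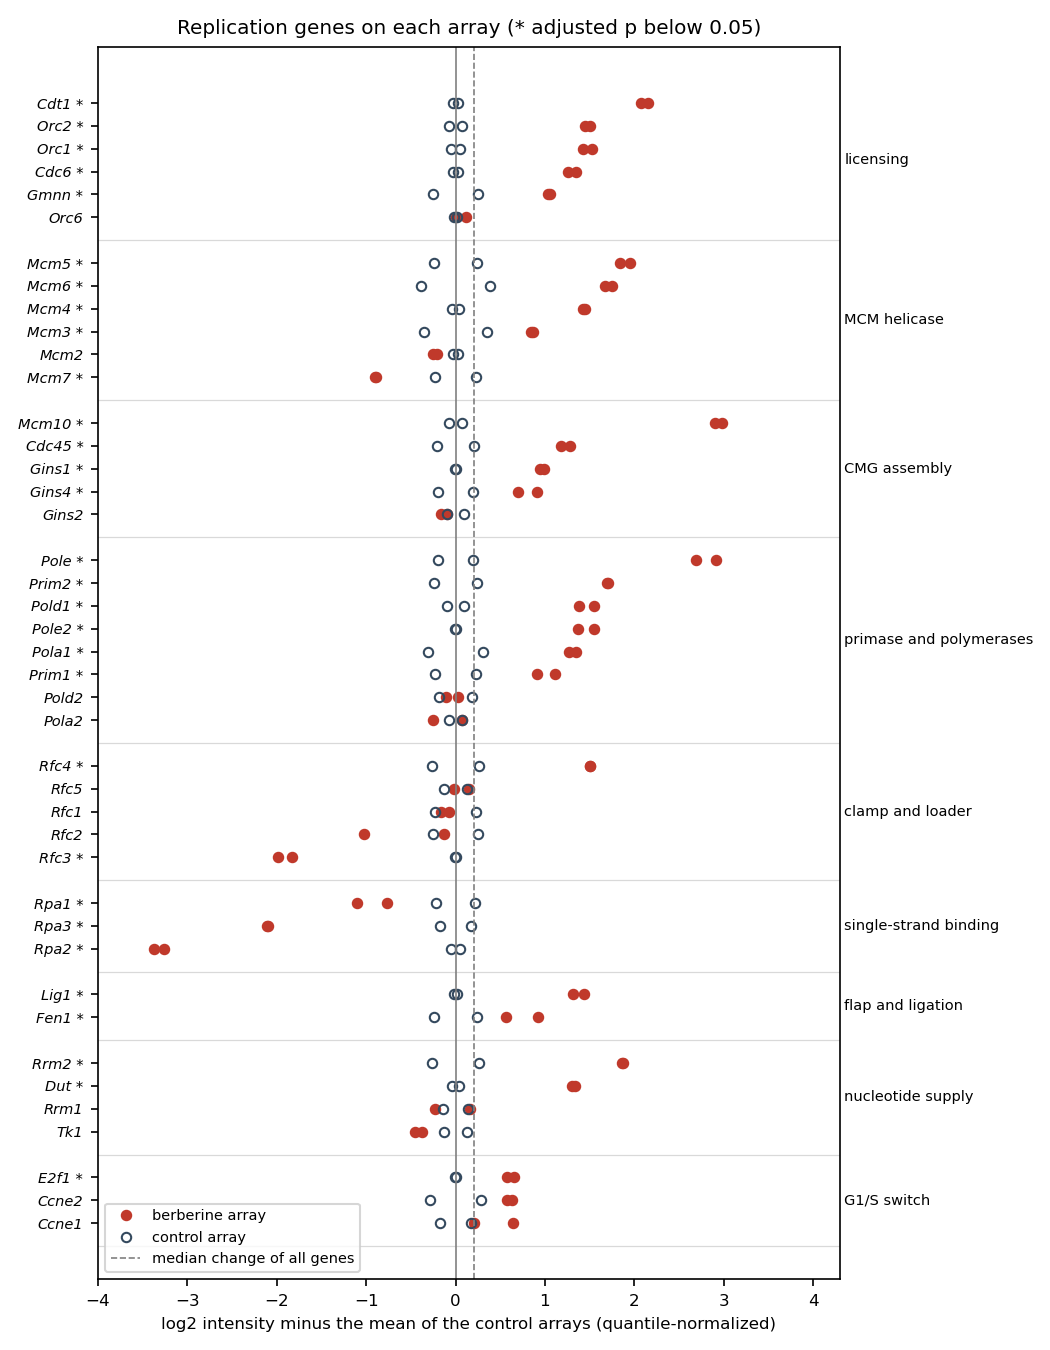
Quantile-normalized log2 intensity of 42 members on each array, minus the mean of the control arrays, with berberine arrays filled and control arrays open and an asterisk for an adjusted p below 0.05. Licensing, helicase and polymerase genes lie mostly to the right of the dashed median of all genes (0.20), and Rpa1, Rpa2 and Rpa3 lie to the left.

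**Figure D2:**
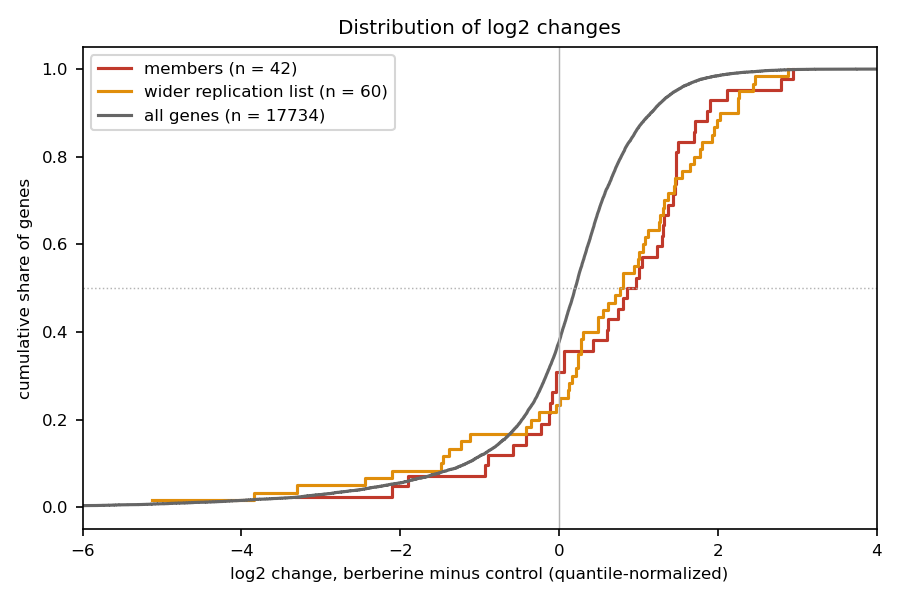
Cumulative share of genes by log2 change, berberine minus control, for the 42 members, 60 further replication genes and all 17734 genes. The member curve crosses the middle line at 0.91 and the curve of all genes at 0.20.

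Promoters of the members were searched for E2F-type letters because E2F factors are known to drive many of these genes. RefSeq promoter windows of mouse build GRCm38.p6, from 250 bases before a gene's start to 50 after it, matched 33 of the 42 members. The letters searched were TTTGGCGC, TTTCCCGC, TTTCGCGC and TTTGCCGC on both strands, and matches may overlap. They were found in at least 1 window of 12 of the 33 members (36.4%) and of 509 of the 13973 tested genes with a window (3.64%). The letters are rich in G and C, and the base composition of the windows was not matched. Only exact letters were searched, so sites with other letters or outside the window would be missed, and E2F binding was not measured. A match was present in 10 of 19 members that rose, in 2 of 5 that fell and in 0 of 9 that did not pass. The members that rose with a match were Mcm3, Mcm5, Mcm6, Orc1, Cdc6, Cdt1, Lig1, Pold1, Pole2 and Pola1, and those that fell with one were Mcm7 and Rfc3. The CCAAT box (CCAAT, both strands) was found in 20 of 33 members (60.6%), against 41.7% of the tested genes. It was present in 10 of 19 members that rose, in each of the 5 that fell and in 5 of 9 that did not pass. The CHR element (TTTGAA, both strands) was found in 4 of 33 (12.1%), against 16.4% of the tested genes.

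Stretches of 120 bases before the start show the E2F-type letters, in capitals, in members that rose. Mcm6 (chr1:128359736-128359855, minus strand) holds 3 matches, 2 of which overlap, and Mcm5 (chr8:75109309-75109428, plus strand) holds 2 overlapping ones. Orc1 (chr4:108579334-108579453, plus strand) and Cdc6 (chr11:98907971-98908090, plus strand) hold 1 match each.
Mcm6: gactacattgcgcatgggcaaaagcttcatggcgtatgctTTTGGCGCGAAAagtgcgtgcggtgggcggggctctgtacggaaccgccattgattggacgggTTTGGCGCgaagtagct
Mcm5: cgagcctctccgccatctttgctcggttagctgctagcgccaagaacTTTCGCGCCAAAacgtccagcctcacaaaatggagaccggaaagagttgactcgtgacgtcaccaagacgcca
Orc1: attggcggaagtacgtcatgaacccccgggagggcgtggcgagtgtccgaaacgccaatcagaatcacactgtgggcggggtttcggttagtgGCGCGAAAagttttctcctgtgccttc
Cdc6: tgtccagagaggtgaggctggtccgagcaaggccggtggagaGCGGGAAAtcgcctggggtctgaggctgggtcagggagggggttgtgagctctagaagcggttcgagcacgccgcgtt

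Members that fell are shown for comparison. Mcm7 (chr5:138171984-138172103, minus strand) and Rfc3 (chr5:151651209-151651328, minus strand) carry an E2F-type match in capitals. Rpa2 (chr4:132768240-132768359, plus strand) and Rpa3 (chr6:8259142-8259261, minus strand) had no match to the E2F-type letters in their windows, and the capitals there mark 2 CCAAT boxes each, read on the opposite strand. The stretches of Mcm6 and Orc1, which rose, hold CCAAT boxes too, not in capitals (57 bases before the start in Mcm6, 120 and 66 in Orc1).
Mcm7: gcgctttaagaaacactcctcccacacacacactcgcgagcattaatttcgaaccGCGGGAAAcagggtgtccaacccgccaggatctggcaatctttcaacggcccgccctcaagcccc
Rfc3: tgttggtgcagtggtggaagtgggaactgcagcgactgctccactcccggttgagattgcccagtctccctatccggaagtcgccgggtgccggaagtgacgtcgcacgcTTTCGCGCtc
Rpa2: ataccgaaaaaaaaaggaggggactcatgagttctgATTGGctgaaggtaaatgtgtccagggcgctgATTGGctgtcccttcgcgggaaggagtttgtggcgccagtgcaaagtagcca
Rpa3: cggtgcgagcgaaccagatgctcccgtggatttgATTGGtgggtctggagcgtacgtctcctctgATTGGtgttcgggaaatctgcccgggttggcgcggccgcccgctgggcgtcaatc

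Origin licensing genes were higher with berberine at 5 of 6 members (83.3%, against 30.0% of all genes), with a median log2 change of 1.39. That count takes Orc2 at its brighter probe, and its other probe fell. Cdt1, which brings the MCM helicase to origins, had deposited intensities of 17803 and 20573 on the berberine arrays, against 4805 and 3739 on the control arrays. Both berberine arrays were far above both control arrays, and Cdt1 rose 4.33-fold (log2 change 2.12, SE 0.12, adjusted p = 0.000371). Gmnn, which encodes geminin, the inhibitor of CDT1, had intensities of 1801 and 2003 with berberine, against 1683 and 945 in control. In the deposited values these groups lay close together, and after quantile normalization Gmnn rose 2.07-fold (log2 change 1.05, SE 0.20, adjusted p = 0.0120). Orc1, the subunit of the origin recognition complex that varies with the cell cycle, had intensities of 503 and 611 with berberine, against 336 and 265 in control, and rose 2.78-fold (adjusted p = 0.00107). Cdc6, the loading factor, had intensities of 177 and 198 with berberine, against 97 and 96 in control. After quantile normalization its control level (log2 6.50) lay below the floor for measured folds. That floor was log2 6.57 or an intensity of 95.3, the 25th percentile that all arrays share after normalization. On the normalized scale Cdc6 thus rose at least 2.34-fold (adjusted p = 0.00146). In the deposited values the log2 changes were smaller than after normalization, at 0.96 for Cdc6 and 0.89 for Orc1. Orc6, a subunit that did not pass, was at a log2 intensity of 13.20 ± 0.08 with berberine and 13.14 ± 0.03 in control (SD, n = 2 each), with a change of 0.06 (95% interval -0.26 to 0.38, adjusted p = 0.713) that was -0.15 after cyclic loess. The Gmnn call was lost without berberine replicate 1 or 2 (adjusted p = 0.120 in both cases), in the deposited values (0.228) and after cyclic loess (0.0711).

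Of the measured members, 4 had 2 probes each, and the folds of the other 38 rest on a single probe. Orc2, another origin recognition subunit, rose at the probe with the higher mean over all arrays, with intensities of 1509 and 1612 with berberine, against 952 and 680 in control (log2 change 1.48, SE 0.13, adjusted p = 0.00114). Its other probe had 214 and 253 with berberine, against 1259 and 822 in control, and fell by 1.55 on the log2 scale (adjusted p = 0.00150). The arrays therefore give no single direction for Orc2. Gins1, a GINS subunit, likewise rose at 1 probe (log2 change 0.97, adjusted p = 0.00315) and fell at the other (-1.29, adjusted p = 0.00315). Ccne2, which encodes cyclin E2, changed by 0.61 at its representative probe without passing (adjusted p = 0.0766) and fell at the other (-0.95, adjusted p = 0.0148). Rrm1 passed at neither (-0.03 and -0.0042), with the second probe under the floor in both groups. Both called members with 2 probes were thus called both ways, against 272 of 1183 such genes on the array (23.0%), and without them 23 members rose. With each gene represented by the probe brightest in control, a choice made after the data were seen, Orc2 and Ccne2 were lower (-1.55 and -0.95).

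**Figure D3:**
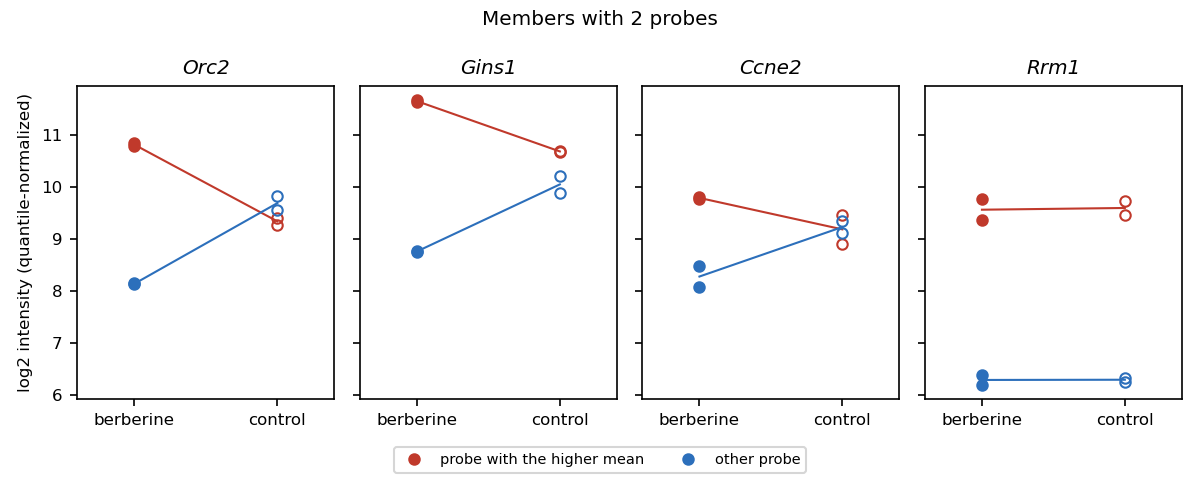
Quantile-normalized log2 intensity of the 2 probes of Orc2, Gins1, Ccne2 and Rrm1, with berberine arrays left and filled and control arrays right and open, and lines joining the group means. For Orc2 and Gins1 the probes move in opposite directions (1.48 and -1.55, 0.97 and -1.29 on log2).

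Genes of the MCM2-7 helicase ring split, with 4 of 6 subunits higher, Mcm7 lower and Mcm2 without a call. The share higher was 66.7%, against 30.0% of all genes, and the share lower was 16.7%, against 18.2%. Mcm5 had deposited intensities of 15498 and 15734 with berberine, against 5392 and 3053 in control, and rose 3.73-fold (log2 change 1.90, SE 0.20, adjusted p = 0.0019). Mcm6 had 12704 and 13199 with berberine, against 5635 and 2714 in control, and rose 3.26-fold (adjusted p = 0.00707). For both subunits the control arrays lay well apart from each other while the berberine arrays lay close together. Mcm4 had 43737 and 47595 with berberine, against 16275 and 13404 in control, and rose 2.70-fold (adjusted p = 0.00106). Mcm3 had 3225 and 3610 with berberine, against 3182 and 1578 in control, and rose 1.81-fold (adjusted p = 0.0463). Mcm3 was thus nearly as bright on control replicate 1 as on a berberine array before normalization. Mcm7 had 1753 and 1960 with berberine, against 5286 and 3039 in control, and fell 1.86-fold (log2 change -0.89, SE 0.19, adjusted p = 0.0164). Mcm2 had 1744 and 1914 with berberine, against 3067 and 2353 in control, a log2 change of -0.23 (95% interval -0.54 to 0.08, adjusted p = 0.179) that was 0.01 after centring and -0.66, with a call, after cyclic loess (adjusted p = 0.0106). Without berberine replicate 1 or 2 the calls of Mcm5 (adjusted p = 0.0505 and 0.0532), Mcm6 (0.0916 and 0.0922), Mcm3 (0.224 and 0.231) and Mcm7 (0.133 and 0.138) were lost. Mcm3 also lost its call in the deposited values (0.260) and after cyclic loess (0.189), and Mcm7 after centring (0.0924).

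Factors that turn the loaded ring into an active helicase rose at 4 of 5 members (80%, against 30.0% of all genes), with a median log2 change of 0.97. That count takes Gins1 at its brighter probe, and its other probe fell. Mcm10, which is needed to activate the helicase, had intensities of 10085 and 10428 with berberine, against 1663 and 1407 in control. The groups were far apart, and the 7.68-fold rise (log2 change 2.94, SE 0.13, adjusted p = 0.000199) was the largest among the members and ranked at 28 of 17734 genes. Cdc45, the helicase partner that joins at origin firing, had 7218 and 7422 with berberine, against 3269 and 3146 in control, and rose 2.35-fold (adjusted p = 0.00567). Gins4, a GINS subunit, had 48865 and 45115 with berberine, against 22861 and 23279 in control, and rose 1.75-fold (adjusted p = 0.0221). Gins2, a further GINS subunit, had 1296 and 1367 with berberine, against 2403 and 1636 in control, a log2 change of -0.13 (adjusted p = 0.463) that reached -0.60 with a call after cyclic loess (adjusted p = 0.0223). Cdc45, Gins1 and Gins4 lost their calls without berberine replicate 1 (adjusted p = 0.0827, 0.0599 and 0.167) and without berberine replicate 2 (0.0808, 0.0624 and 0.111). Gins4 also lost it without control replicate 1 (0.0665) and after cyclic loess (0.0696), and Gins1 in the deposited values (0.102).

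Polymerase and primase genes were higher at 6 of 8 members (75%, against 30.0% of all genes), with a median log2 change of 1.39. None fell, against 18.2% of all genes. Pole, the catalytic subunit of the leading-strand polymerase epsilon, had intensities of 2804 and 3731 with berberine, against 780 and 473 in control. It rose 6.97-fold (log2 change 2.80, SE 0.19, adjusted p = 0.000567). Its partner subunit Pole2 had 5066 and 4868 with berberine, against 2374 and 1795 in control, and rose 2.76-fold (adjusted p = 0.00126). Pold1, the catalytic subunit of the lagging-strand polymerase delta, had 1263 and 1602 with berberine, against 895 and 623 in control, and rose 2.77-fold (adjusted p = 0.00160). Both catalytic subunits were therefore higher on each berberine array than on each control array. The delta subunit Pold2 did not pass, with 14840 and 14960 with berberine, against 13740 and 13554 in control (log2 change -0.04, 95% interval -0.48 to 0.40, adjusted p = 0.872), a change that was 0.69 with a call after centring (adjusted p = 0.0272).

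The polymerase alpha and primase complex, which lays down primers, was higher at 3 of its 4 genes, against 30.0% of all genes. Prim2, the large primase subunit, had intensities of 6615 and 7306 with berberine, against 3143 and 1758 in control, and rose 3.24-fold (adjusted p = 0.00267). The catalytic subunits Pola1 and Prim1 rose 2.48-fold and 2.02-fold (adjusted p = 0.00999 and 0.0137). Pola2, the accessory subunit, had 886 and 1265 with berberine, against 1932 and 1342 in control, and the normalized groups overlapped (log2 change -0.09, 95% interval -0.51 to 0.33, adjusted p = 0.684). Prim2, Pola1 and Prim1 lost their calls without berberine replicate 1 (adjusted p = 0.0599, 0.103 and 0.0982) and without berberine replicate 2 (0.0657, 0.118 and 0.135). In the deposited values Pola1 (0.120) and Prim1 (0.108) did so as well, and Prim1 after cyclic loess (0.0547).

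Of the 5 genes of the replication factor C complex, which loads the sliding clamp, 1 rose and 1 fell. The share that rose (20%) was below that of all genes (30.0%), and the share that fell (20%) was near it (18.2%). Rfc4 had intensities of 9328 and 10242 with berberine, against 3480 and 3515 in control, and rose 2.84-fold (SE of the log2 change 0.20, adjusted p = 0.00423). Rfc3 had 634 and 799 with berberine, against 4000 and 2983 in control, and fell 3.75-fold (log2 change -1.91, SE 0.13, adjusted p = 0.000576). These subunits of 1 complex thus changed in opposite directions, each at its only probe. Rfc1, the large subunit, and Rfc5 changed by -0.12 and 0.07 and did not pass (adjusted p = 0.647 and 0.747), and their signs turned under another scaling (0.23 for Rfc1 after centring, -0.07 for Rfc5 in the deposited values). Rfc2 had 3032 and 6757 with berberine, against 8872 and 4816 in control, and the berberine arrays lay further apart than the group means (log2 change -0.58, 95% interval -1.47 to 0.32, 0.04 after centring). The Rfc4 call was lost without berberine replicate 1 or 2 (adjusted p = 0.0705 and 0.0766).

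All 3 genes of replication protein A, the complex that coats single-stranded DNA at the fork, fell after quantile normalization, against 18.2% of all genes. Of these, only Rpa2 and Rpa3 kept the call under the 4 other scalings. Rpa2 had intensities of 293 and 317 with berberine, against 4296 and 3456 in control. The fall was 9.95-fold (adjusted p = 0.00014, log2 change -3.32, SE 0.13), and Rpa2 was the only member with a fall of at least 8-fold, a size seen at 2.88% of all genes. Rpa3, the smallest subunit, had 3169 and 3533 with berberine, against 17889 and 10998 in control, and fell 4.28-fold (log2 change -2.10, SE 0.16, adjusted p = 0.000789). For both genes each berberine array lay far below each control array. Rpa1, the large subunit, had 11601 and 16358 with berberine, against 22447 and 23825 in control, and fell 1.92-fold (log2 change -0.94, SE 0.21, adjusted p = 0.0215). The Rpa1 call was lost in the deposited values (adjusted p = 0.0808), after centring (0.469), with a common 75th percentile (0.231), and without berberine replicate 1 (0.162), berberine replicate 2 (0.101) or control replicate 2 (0.102). No second probe was there to check Rpa1, Rpa2 or Rpa3.

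Both genes that finish Okazaki fragments were higher with berberine, against 30.0% of all genes. Lig1, the ligase that seals them, had intensities of 14248 and 17066 with berberine, against 6507 and 4742 in control, and rose 2.59-fold (log2 change 1.37, SE 0.12, adjusted p = 0.00129). Fen1, the nuclease that trims their flaps, had 7808 and 11013 with berberine, against 5278 and 5317 in control, and rose 1.67-fold (adjusted p = 0.0493). The Fen1 call was lost when any 1 array was left out (adjusted p = 0.132 and 0.261 without berberine replicate 1 and 2, 0.171 and 0.0661 without control replicate 1 and 2), in the deposited values (0.0627), after cyclic loess (0.116) and with probes averaged (0.0502).

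Nucleotide supply genes were higher at 2 of 4 members (50%, against 30.0% of all genes), and none fell after quantile normalization (against 18.2%). Rrm2, the S-phase subunit of ribonucleotide reductase, had intensities of 19713 and 21267 with berberine, against 5122 and 5280 in control, and rose 3.65-fold (log2 change 1.87, SE 0.20, adjusted p = 0.00227). Its partner Rrm1, the large subunit, had 494 and 752 with berberine, against 1182 and 774 in control, with overlapping groups after normalization (log2 change -0.03, 95% interval -0.54 to 0.47, adjusted p = 0.905). Dut, the enzyme that removes dUTP, had 911 and 1046 with berberine, against 635 and 539 in control, and rose 2.49-fold (adjusted p = 0.00134). Tk1, the salvage enzyme thymidine kinase, had 427 and 462 with berberine, against 942 and 888 in control. Both berberine arrays were below both control arrays, and the log2 change of -0.41 (95% interval -0.79 to -0.03) did not pass (adjusted p = 0.0756), while it did in the deposited values (-1.04, adjusted p = 0.0156), with a common 75th percentile (0.0390), after cyclic loess (0.0091) and without control replicate 1 (0.0401). The Rrm2 call was lost without berberine replicate 1 or 2 (adjusted p = 0.0538 and 0.0603), and the Dut call in the deposited values (0.0653).

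Among the genes of the G1/S switch, E2f1 rose and the E cyclins did not pass. Thus 1 of 3 members was higher (33.3%), near the share of all genes (30.0%). E2f1, a factor that activates S-phase genes, had intensities of 6683 and 7024 with berberine, against 5036 and 3845 in control, and rose 1.53-fold (log2 change 0.61, SE 0.12, adjusted p = 0.0136). Ccne1, which encodes cyclin E1, the partner of CDK2 at S-phase entry, had 2782 and 4381 with berberine, against 3796 and 2304 in control (log2 change 0.42, 95% interval -0.14 to 0.98, adjusted p = 0.173). Before normalization those groups overlapped, and after centring Ccne1 passed (adjusted p = 0.0462). Ccne2 passed with the replicate number as a block (0.0226), with an intensity trend and robust prior (0.0490) and without control replicate 2 (0.0234), at the probe that opposed its other one. E2f1 lost its call without berberine replicate 1 or 2 (adjusted p = 0.119 and 0.101), in the deposited values (0.110) and after cyclic loess (0.0641).

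**Figure D4:**
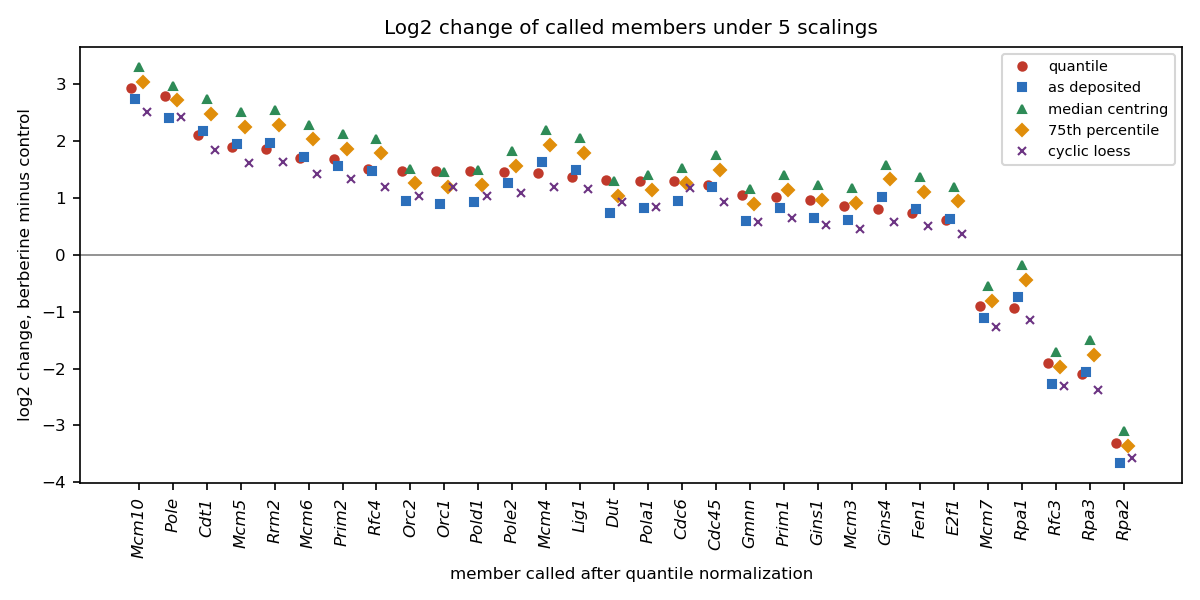
Log2 change, berberine minus control, of the 30 members called after quantile normalization, under 5 scalings of the arrays. All 30 keep their sign under each scaling, Rpa1 comes closest to 0 (-0.18 after centring), and the call, which is not drawn, was kept under the other 4 scalings by 16 of the 25 that rose and 3 of the 5 that fell.

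A wider list of replication and S-phase genes that are not members had a like split. That list was chosen with earlier results of these data known, so it is no independent check. Of 60 measured, 36 rose (60.0%, against 30.0% of all genes) and 10 fell (16.7%, against 18.2%), with a median log2 change of 0.78. Without berberine replicate 1, 17 were higher (28.3%, against 6.53% of all genes) and 5 lower (8.33%, against 8.62%). Without berberine replicate 2, 15 of 60 were higher (against 5.51%) and 5 lower (8.33%, against 8.07%), and in the deposited values 22 were higher (36.7%, against 11.2%) and 11 lower (18.3%, against 16.7%). The lower shares of this list were thus near the background in these settings and after quantile normalization. The rises with the smallest p were at Uhrf1, which guides maintenance of DNA methylation behind the fork (7.37-fold), Dbf4, the activating subunit of the CDC7 kinase (4.82-fold), Dtl, an adaptor for CDT1 destruction (5.53-fold), the exonuclease gene Exo1 (5.43-fold) and Ccna2, which encodes cyclin A2 (3.86-fold). Exo1 was higher at its second probe too (log2 change 1.28, adjusted p = 0.00164). The falls with the smallest p were at Top2a, a DNA topoisomerase (at least 33.1-fold), Usp1, a deubiquitinase that acts on PCNA (14.3-fold), Asf1b, a histone chaperone (9.87-fold), Wdhd1, which links the helicase to polymerase alpha (5.43-fold), and Orc5, an origin recognition subunit (2.61-fold). Adjusted p was 0.000125 to 0.00153 for these 10 genes, and each fall rests on 1 probe. Other genes of the member complexes also went both ways: Gins3 rose (1.45) with its other probe at -0.17 and not passing, Pold3 rose (1.65), and Cdk2, the cyclin E partner, fell at both of its probes (-1.12 and -2.31). Msh6, a mismatch repair gene, rose at 1 probe and fell at the other (0.81 and -2.16). These last 4 genes were chosen after their values were seen.

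Markers of cell type moved with the treatment. For the counts that follow, 30.0% of all genes were called higher and 18.2% lower. All 11 measured preadipocyte and fibroblast markers of 13 listed lay above the floor in both groups, with 5 higher and 5 lower, among them Col1a1, a collagen chain (log2 change 1.49), and Pdgfrb, a growth factor receptor (1.04, a call lost without berberine replicate 1 or 2, adjusted p = 0.141 and 0.113). The 5 that fell, named after their values were seen, were Lum (log2 change -3.07), Dcn (-2.97), Dlk1 (-1.63), Pdgfra (-0.99) and Col3a1 (-0.84). The list's summed intensity was 317522 and 318542 with berberine, against 417247 and 446710 in control, and its median log2 change was -0.09. Dcn gave the largest part of the difference in the sums, at log2 13.62 and 13.66 with berberine, against 16.47 and 16.75 in control. Of 13 mature adipocyte markers 8 fell and 2 rose, and Lpl, Cd36 and Retn did not pass. The 2 that rose, also named after their values were seen, were Lipe, the hormone-sensitive lipase gene (1.01, adjusted p = 0.00418), and Slc2a4, the gene of the glucose transporter GLUT4 (0.58, adjusted p = 0.0156). The summed intensity of the adipocyte list was 40051 and 42476 with berberine, against 663353 and 644783 in control. Adipoq, the adiponectin gene, changed by -6.97 and Fabp4, a fatty acid binding protein, by -2.82 on log2. Summed macrophage markers (8 of 8 measured) were at 3892 and 3813 with berberine, against 11753 and 10553 in control, with Adgre1 and Fcgr1 under the floor in both groups. Most of that sum was Cd14, at 2491 and 2466 with berberine, against 10450 and 9038 in control. Cd14 (log2 change -1.97) and Cd68 (-0.73) fell, Csf1r rose (0.48), and the list's median change was -0.02. These 3 genes were named after their values were seen. Endothelial markers (7 of 7) summed to 2226 and 2067 with berberine, against 1326 and 1503 in control, with 4 higher and 0 lower. Epithelial ones (5 of 6) summed to 1708 and 1611 with berberine, against 1246 and 1362 in control, but their median log2 change was -0.18. Most of the berberine sum was Krt19, at log2 9.94 and 9.76 with berberine, against 7.75 and 8.15 in control. Among the epithelial markers Krt19 rose (log2 change 1.90) and Krt18 fell (-3.19) to below the floor, both named after their values were seen. The part of these differences in the replication results was not tested.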

How the data were processed

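Cy5-labelled RNA was hybridised to 1-colour arrays, 1 for each sample, per the labels. The authors deposited linear probe intensities in whole numbers, with scanner, background correction and scaling not given in the sources used here. The zero point of the values therefore stays unknown. Sample titles gave the groups, because the treatment text names berberine for all samples. Of 26423 probes, 20377 carried 1 gene symbol (2126 through an older name), 0 carried several and the other 6046 stayed unnamed here. Probes at or under 0 anywhere (15) were dropped, which left 26408 for the fit on log2 intensity without a pseudocount. Array medians differed by 0.84 on log2, so arrays were quantile-normalized and fitted per probe with limma 3.58.1 (R 4.3.3; lmFit, eBayes), with 2 residual and 2.89 prior degrees of freedom.

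With 2 against 2 arrays an exact permutation test cannot go below a two-sided p of 0.333, so the p-values depend on the spread that limma pools. At probes with a control level above log2 10, arrays of a group differed by a median of 0.088 for berberine and 0.26 for control. A gene with more than 1 probe was represented by the brightest on average across the 4 arrays. The members and lists were chosen with earlier results of these data known, and every member with a probe is named. Outside them the rule took the 5 rises and 5 falls of the wider list with the smallest p and 4 marker genes. The fit was run on simulated data in which few probes changed and both groups had the same spread. Its error rate with the many changes and unequal spread of these arrays was thus not tested. The small number of arrays limits the precision.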

Additional observations from a re-analysis of the deposited data

How the results depend on the processing

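Choosing probes on the control arrays was added after the data were seen. Of 30 member calls, 12 held under all 14 alternatives (9 higher, 3 lower). With each array omitted in turn there were 11 to 25 members higher and 3 to 6 lower, 15 to 35 wider-list genes higher and 5 to 11 lower, and a member median above that of all genes by 0.68 to 0.86; 1 array then stands alone in its group and is assumed to vary like the other group. Members called lower numbered 3 after centring, 8 after cyclic loess and 3 with at least a 2-fold change added, against 5. Wider-list genes called higher numbered 22 in the deposited values, against 36. The median gap of 0.71 was 0.55 after cyclic loess and 0.59 with probes averaged. Same-numbered arrays did not deviate together across probes (r = 0.0035). That cannot show whether the arrays were handled as pairs, because each group gives only a single difference between arrays. With the replicate block 26 members were higher and 5 lower, a gain of Ccne2, and no member call was lost. The block changed nothing else among the member and wider-list counts by over 1.5 times. Signs turned for members without a call: Rfc5 was at -0.070 as deposited and -0.27 after cyclic loess, Pold2 at 0.13 as deposited, 0.69 after centring and 0.43 with a common 75th percentile, Mcm2, Rfc1 and Rfc2 at 0.0093, 0.23 and 0.035 after centring, and Orc6 at -0.15 after cyclic loess. With 1 array omitted Rfc1 ranged over -0.36 to 0.11, Rrm1 over -0.23 to 0.17, Rfc5 over -0.058 to 0.20, Pold2 over -0.23 to 0.15 and Pola2 over -0.24 to 0.066. With opposed probes averaged, Orc2, Gins1 and Ccne2 were at -0.038, -0.16 and -0.17, and with probes chosen on control arrays Orc2 and Ccne2 were at -1.55 and -0.95. The cause was not tested for the other changes.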
